A study of Homo sapiens with 6 samples.

Results

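The enzymes that build glycerolipids and phospholipids were examined in MDA-MB-231 as 38 genes chosen by name for their steps in these pathways. All 38 were found among the 63241 genes of the table, TMEM189 under its present symbol PEDS1, and 37 averaged 1 TPM or more across the 6 libraries, which placed them among the 12999 genes tested. MDA-MB-231 is an established human line from a breast carcinoma without estrogen, progesterone or HER2 receptors and with mesenchymal traits. The remaining member, PCYT1B, was listed at 0 in every library. TPM counts a gene's transcripts relative to all transcripts of its library, with transcript length taken into account, so that levels can be compared between genes. The comparison was between 3 libraries of cells cultured for 24 h after ArA was given at 40 µM and 3 libraries of non-treated cells, and the study's title names arachidonic acid, a polyunsaturated fatty acid. All groups were of the same line in DMEM with 10% fetal bovine serum, and the labels name no vehicle for the controls. Nothing in them ties replicates to separate cultures, so p-values here reflect only how far these libraries spread, and that spread may be technical. The line's 5 mesenchymal markers (VIM, CD44, AXL, CAV1 and MSN) summed to 2389 to 2585 TPM in control and 2565 to 2710 TPM in ArA libraries. Of 6 luminal epithelial markers, 3 (GATA3, FOXA1 and ERBB3) reached 1 TPM, at 2.88 to 4.36 TPM, while PGR was listed at 0 and ESR1 was at most 0.03 TPM. Of 5 adipocyte markers, ADIPOQ and LEP were listed at 0 in every library and LIPE reached 1 TPM, at 1.06 to 2.28 TPM in controls and 2.25 to 3.98 TPM with ArA. The adipocyte sum was 1.66 to 3.09 TPM in controls and 2.97 to 4.70 TPM with ArA, and its part in the results was not tested. Control replicate 2 and ArA replicate 1 stood apart from the other libraries by their trend with transcript GC content, described with the results it touches.

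Glycerolipid synthesis begins when a glycerol-3-phosphate acyltransferase (GPAT) adds a fatty acyl chain to glycerol-3-phosphate and a lysophosphatidic acid acyltransferase (AGPAT) adds another, giving phosphatidic acid. Lipins remove the phosphate to give diacylglycerol, which DGAT enzymes turn into triglyceride for storage in lipid droplets, or which receives choline or ethanolamine head groups to become membrane phospholipid. Phosphatidic acid can also be activated with CTP to make phosphatidylinositol and cardiolipin, while a peroxisomal route makes ether lipids. The steps up to diacylglycerol are shared, so the triglyceride branch here (GPATs, AGPATs, lipins and DGATs, 14 genes) also feeds phospholipids. The phospholipid branch held 20 genes, 19 of them tested, and the ether lipid enzymes, 4 genes, were kept apart.

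No enzyme of either branch passed the test for a difference between ArA-treated and control cells. Differences were estimated with limma on log2(TPM + 1) with Benjamini-Hochberg adjustment across the 12999 genes and a threshold of 0.05. Of the 37 tested members, 0 passed, against 0.0231% of all tested genes, and the limma adjusted p of each was 0.999. At an unadjusted p under 0.05 there were also 0 members in limma, where 2.78% of all tested genes lay. The differences between ArA and control spanned -0.22 for LPIN3 to 0.26 for GPAT3 on the log2(TPM + 1) scale, which understates the change of low genes. The interval of a member's difference was narrow on this scale in most cases. For 35 of the 37 members the 95% interval lay within a 1.5-fold change of TPM + 1 in either direction. The exceptions were the ether lipid enzymes AGPS and FAR1. For 36 it lay within a 2-fold change of TPM + 1. As a fold of TPM itself the intervals are wider, most so for low members such as CDS1 (1.33 to 2.19 TPM in controls). Fewer members may lie within these bounds in TPM. The median difference of the members was 0.05, and that of all tested genes was 0.06. Positive differences were found for 25 members, where 68.9% of all tested genes were positive. With TPM rescaled by median of ratios, 19 members were positive, and 18 under quantile normalisation or without mitochondrially encoded genes. The median difference of all tested genes was 0.0031, 0.0053 and -0.0031 in these settings, and that of the members 0.0037, -0.021 and -0.0019. The share of all tested genes that were positive was not counted there. As RNA came from whole cultures, fewer cells of a type and less RNA per cell cannot be told apart.

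**Figure D1:**
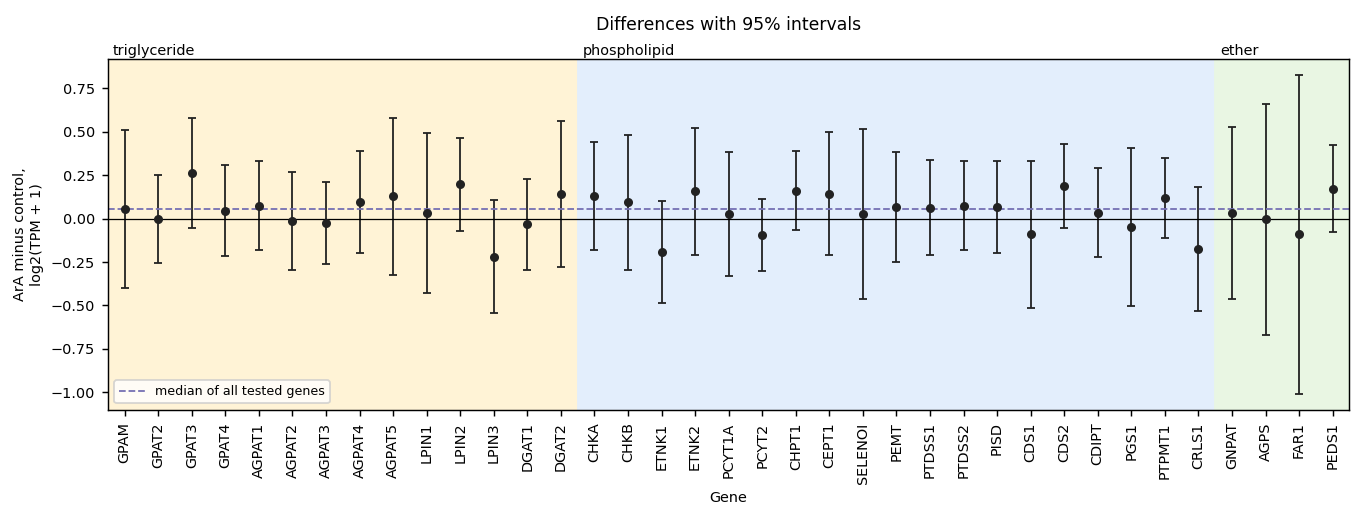
Difference between ArA and control libraries for the 37 tested genes, as the limma estimate on the log2(TPM + 1) scale (points) with 95% intervals (bars), by branch. Every interval spans 0, most points lie near the dashed median of all tested genes at 0.06, and the interval of FAR1 is the widest.

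The groups did not overlap for 3 members, CDS2 in the higher direction and LPIN3 and ETNK1 in the lower. Over all tested genes, 6.84% had all ArA values above all control values and 1.21% had them all below. CDS2 makes CDP-diacylglycerol, the activated form of phosphatidic acid from which phosphatidylinositol is made. It had 32, 28.2 and 27.17 TPM in controls 1 to 3 against 35.52, 32.25 and 32.15 TPM in ArA replicates 1 to 3, and the closest values of the groups were control replicate 1 and ArA replicate 3. Its limma difference was 0.19 (95% interval -0.05 to 0.43). LPIN3, a member of the lipin phosphatidate phosphatase family, had 4.89, 4.88 and 6.07 TPM in controls 1 to 3 against 4.09, 4.75 and 4.31 TPM in ArA replicates 1 to 3, a low level at which control replicate 3 lay highest. Its difference was -0.22 (95% interval -0.55 to 0.11). ETNK1 phosphorylates ethanolamine in the first step of phosphatidylethanolamine synthesis. It had 11.55, 11.03 and 11.64 TPM in controls 1 to 3 against 8.5, 10.24 and 10.99 TPM in ArA replicates 1 to 3, where control 2 and ArA replicate 3 nearly touched. Its difference was -0.19 (95% interval -0.49 to 0.10). For CDS2, LPIN3 and ETNK1 the limma adjusted p was 0.999. Under median-of-ratios scaling, quantile normalisation or without mitochondrially encoded genes the groups of CDS2 overlapped, and under quantile normalisation those of LPIN3 did too. After each library's trend with GC content had been removed, the groups overlapped for CDS2 and ETNK1, did not overlap for LPIN3, and did not overlap for CRLS1 and PCYT2 (both lower) and LPIN2 (higher). That made 1 member higher and 3 lower, against 4.96% and 3.98% of all tested genes. With a single library left out, the members without overlap numbered 8 without control 1, control 2 or ArA replicate 1, where 15.4%, 27.0% and 23.6% of all tested genes had none. They numbered 6 without ArA replicate 3 (13.1% of all tested genes), 5 without ArA replicate 2 (12.4%) and 4 without control 3 (12.9%). Without control replicate 2 and ArA replicate 1, where 2 against 2 libraries separate more easily, the groups of 12 members did not overlap, 7 higher and 5 lower, with CDS2, LPIN3 and ETNK1 among them. Those of 44.4% of all tested genes did not overlap there.

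In GENCODE v29 on hg38 the CDS2 gene (ENSG00000101290) spans positions 5126786 to 5197887 of chromosome 20. LPIN3 (ENSG00000132793) spans 41340920 to 41360582 of chromosome 20, and ETNK1 (ENSG00000139163) 22625075 to 22690665 of chromosome 12, all on the forward strand. RefSeq promoters on GRCh38.p14, windows of 300 bases around the annotated start, were matched for 30 of the 38 members. Those of CDS2 at chr20:5126758-5127057 and ETNK1 at chr12:22624921-22625220, both on the forward strand, are shown 5′ to 3′ because these are separated members with a promoter in the table. Capitals mark motif matches on either strand, and only the promoter of CDS2 has any, a CCAAT box read on the reverse strand.
CDS2: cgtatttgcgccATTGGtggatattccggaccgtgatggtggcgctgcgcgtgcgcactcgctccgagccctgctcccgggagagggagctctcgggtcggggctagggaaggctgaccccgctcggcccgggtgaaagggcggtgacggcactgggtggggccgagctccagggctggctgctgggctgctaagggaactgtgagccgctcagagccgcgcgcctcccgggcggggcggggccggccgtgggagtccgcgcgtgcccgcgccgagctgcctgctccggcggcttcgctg
ETNK1: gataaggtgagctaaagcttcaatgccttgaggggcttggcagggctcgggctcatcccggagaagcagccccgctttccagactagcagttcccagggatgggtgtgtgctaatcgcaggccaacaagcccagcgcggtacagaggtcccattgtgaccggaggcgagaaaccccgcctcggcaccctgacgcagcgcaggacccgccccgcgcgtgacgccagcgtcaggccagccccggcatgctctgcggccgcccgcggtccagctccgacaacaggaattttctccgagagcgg
The motifs searched on both strands were the CCAAT box (CCAAT), the E-box (CACGTG), the TATA box (TATAAA), the sterol regulatory element (TCACNCCAC) and the PPAR response element (AGGTCA, any base, AGGTCA), where N is any base. CCAAT was present in 11 of the 30 member promoters (36.7%) and in 34.6% of 35116 RefSeq promoters of the same length. The E-box was present in 2 of 30 (GNPAT and PTPMT1), against 7.26% of all promoters, and the TATA box in 1 of 30 (AGPAT4), against 11.5%. The sterol element was in 0 of 30 and in 1.13% of all promoters, and the PPAR element in 0 of 30 and 0.0228% of all. These are matches of letters in a short window and say nothing of binding.

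Among glycerol-3-phosphate acyltransferases, GPAT2, a mitochondrial form best known from the testis, was the most abundant transcript of the 4, ahead of the endoplasmic reticulum form GPAT4. GPAT2 had 50.63, 61.04 and 54.08 TPM in controls 1 to 3 against 59.62, 55.34 and 50.53 TPM in ArA replicates 1 to 3, with a difference of -0.00 (95% interval -0.25 to 0.25). Its pseudogene copies GPAT2P1 and GPAT2P2 were listed at 0 to 0.18 TPM, though reads shared with such copies may be split by the counting. Groups overlapped widely for GPAT2, and the same held for GPAT4, with 45.4, 37.37 and 35.75 TPM in controls 1 to 3 against 41.23, 39.45 and 41.12 TPM in ArA replicates 1 to 3. GPAT3, an endoplasmic reticulum form linked to triglyceride storage, had 27.14, 19.61 and 20.72 TPM in controls 1 to 3 against 26.6, 26.72 and 27.53 TPM in ArA replicates 1 to 3, where control replicate 1 lay within the ArA range. The ratio of its mean TPM was 1.20, and its limma difference of 0.26 (95% interval -0.05 to 0.58), with a limma unadjusted p of 0.0897, had the smallest p among members. Without control replicate 1, 3 members (GPAT3, CDS2 and CHPT1) had an unadjusted p under 0.05 in limma, against 3.18% of all tested genes. There the GPAT3 difference was 0.40, with a limma unadjusted p of 0.00640, and the adjusted p over the libraries left out in turn ranged from 0.777 to 1. GPAM, the mitochondrial GPAT under insulin and SREBP control in liver, had only 2.58 to 4.50 TPM in control and 3.21 to 4.08 TPM in ArA libraries. GPAT2 made up 45.9 ± 5.62% of the summed TPM of the GPAT family in control and 43.6 ± 2.36% in ArA libraries (SD, n = 3 each), and GPAM 2.98 ± 0.741% and 2.96 ± 0.448%.

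AGPAT1 and AGPAT2, the classic enzymes of phosphatidic acid synthesis, together made up most of the AGPAT transcripts. AGPAT1 had 64.86, 79.5 and 69.7 TPM in controls 1 to 3 against 82.05, 72.3 and 71.02 TPM in ArA replicates 1 to 3, and AGPAT2, loss of which causes congenital lipodystrophy, had 37.72, 39.86 and 35.74 TPM in controls 1 to 3 against 43.41, 33.2 and 36.21 TPM in ArA replicates 1 to 3. In both genes control replicate 2 and ArA replicate 1 were the highest of their groups, and ArA and control ranges overlapped. AGPAT1 took 47.4 ± 3.19% of the family's summed TPM in control and 48.4 ± 0.918% in ArA libraries, and AGPAT2 25.1 ± 0.765% and 24.2 ± 1.59% (SD, n = 3 each). AGPAT3, AGPAT4 and AGPAT5 were less abundant, with means over the 6 libraries below that of AGPAT2. AGPAT3 ranged from 22.63 to 23.58 TPM in controls and 21.44 to 24.88 TPM with ArA, AGPAT4 from 5.32 to 5.61 and 5.27 to 6.41, and AGPAT5 from 9.48 to 15.23 and 11.85 to 15.99.

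**Figure D2:**
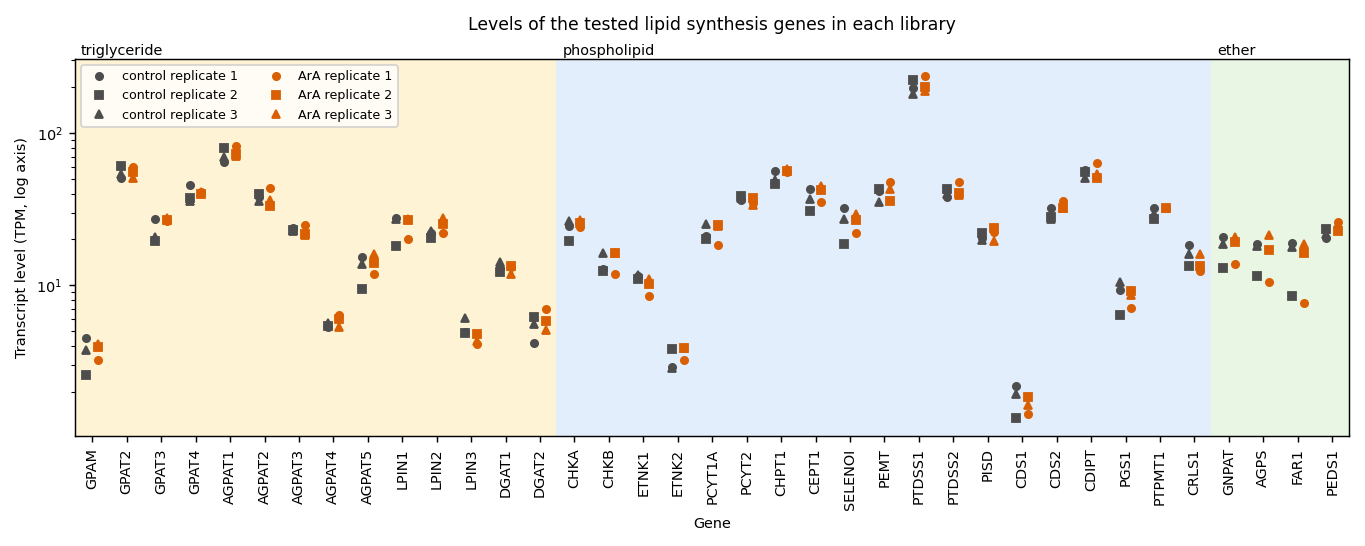
Level of each tested gene in each library in TPM on a log axis, with control libraries in grey and ArA libraries in orange and the replicate number given by the marker. PTDSS1 is the most abundant gene and CDS1 the least, and grey and orange points overlap for all genes but CDS2, LPIN3 and ETNK1.

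Lipins, which produce diacylglycerol and in the nucleus also act as transcriptional cofactors, were led by LPIN1 and LPIN2. LPIN1 had 27.81, 18.09 and 27.25 TPM in controls 1 to 3 against 20.15, 26.62 and 27.41 TPM in ArA replicates 1 to 3, where control replicate 2 and ArA replicate 1 were lowest, and its difference was 0.03 (95% interval -0.43 to 0.49). LPIN2 had 21.98, 20.31 and 22.69 TPM in controls 1 to 3 against 22.12, 25.42 and 27.65 TPM in ArA replicates 1 to 3, with a difference of 0.20 (95% interval -0.07 to 0.47). ArA replicate 1 lay inside the control range of LPIN2 while ArA replicates 2 and 3 lay above it. After removal of the GC trend the difference of LPIN2 was 0.14 (limma unadjusted p = 0.0907, adjusted p = 1.00) and the groups did not overlap. As a share of lipin transcripts, LPIN3 stood at 8.94, 11.3 and 10.8% in control replicates 1, 2 and 3 and at 8.82, 8.36 and 7.26% in ArA replicates 1, 2 and 3. A scaling of whole libraries leaves these shares as they are, but a trend with GC content can alter them. GC content was 58.6% in LPIN3, 47.5% in LPIN1 and 48.9% in LPIN2. The groups do not overlap, though control 1 and ArA replicate 1 differ by little. As LPIN3 was already separated in TPM in these libraries, its share is not further support. How often such shares separate in general was not counted.

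DGAT1 and DGAT2, which catalyse the last step of triglyceride synthesis by unrelated proteins, were both at modest levels. DGAT1 had 13.01, 12.23 and 14.12 TPM in controls 1 to 3 against 13.23, 13.31 and 11.84 TPM in ArA replicates 1 to 3, and DGAT2 had 4.17, 6.21 and 5.59 TPM in controls 1 to 3 against 6.97, 5.84 and 5.06 TPM in ArA replicates 1 to 3. The ArA and control ranges overlapped for both. DGAT1 had a difference of -0.03 (95% interval -0.29 to 0.23), a fold of TPM + 1 between 0.815 and 1.17. That of DGAT2 was 0.14 (95% interval -0.28 to 0.56), a fold of TPM + 1 between 0.826 and 1.48. The bounds on the fold of TPM itself are wider. DGAT1 overlaps HSF1 on the opposite strand (32.67 to 40.54 TPM), and no strand setting of the counting is given in the sources used here. DGAT1 made up 71.2 ± 4.72% of the summed DGAT transcripts in control and 68.4 ± 2.49% in ArA libraries (SD, n = 3 each).

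**Figure D3:**
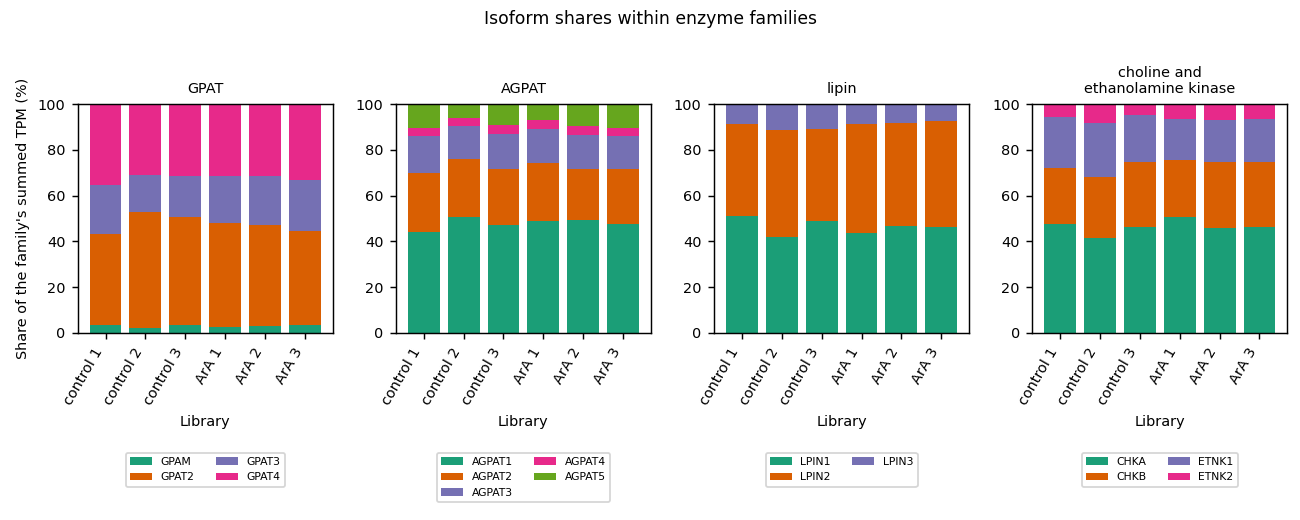
Share of each isoform in the summed TPM of its family (%) in each of the 6 libraries, for GPATs, AGPATs, lipins and the choline and ethanolamine kinases. Bars stack to 100%, and the LPIN3 and ETNK1 segments are thinner in each ArA library than in each control library.

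In the CDP-choline and CDP-ethanolamine routes, also called the Kennedy pathway, kinases phosphorylate the head group, CTP-dependent enzymes activate it, and phosphotransferases join it to diacylglycerol. Choline kinase gene CHKA, often raised in cancers, had 24.6, 19.37 and 26.3 TPM in controls 1 to 3 against 24.21, 25.53 and 27 TPM in ArA replicates 1 to 3, and its relative CHKB had 12.81, 12.39 and 16.19 TPM in controls 1 to 3 against 11.92, 16.25 and 16.33 TPM in ArA replicates 1 to 3. Ranges overlapped in both, and reads of CHKB may be shared with the readthrough gene CHKB-CPT1B (1.03 to 3.64 TPM). ETNK2, the less abundant ethanolamine kinase, had 2.88, 3.8 and 2.86 TPM in controls 1 to 3 against 3.24, 3.84 and 3.85 TPM in ArA replicates 1 to 3. Among transcripts of the 4 kinases, the ETNK1 share was 22.3, 23.7 and 20.4% in control replicates 1, 2 and 3 and 17.8, 18.3 and 18.9% in ArA replicates 1, 2 and 3. Every ArA share lay below every control share. As ETNK1 was already separated in TPM in these libraries, its share is not further support. Its transcript has 34.6% GC, and those of CHKA, CHKB and ETNK2 have 51.5 to 59.7%, so library trends with GC content can alter the share. The share was not corrected for these trends, and the ETNK1 levels overlapped between groups after GC correction.

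PCYT1A, the rate-limiting CTP-dependent enzyme of phosphatidylcholine synthesis, had 21, 20.11 and 25.15 TPM in controls 1 to 3 against 18.4, 24.88 and 24.56 TPM in ArA replicates 1 to 3. ArA replicate 1 lay below the controls and control 3 above the ArA libraries, and the other values overlapped. Its paralog PCYT1B was the member at 0. PCYT2, the matching enzyme for ethanolamine, had 36.38, 38.81 and 37.53 TPM in controls 1 to 3 against 34.47, 37.22 and 33.78 TPM in ArA replicates 1 to 3. ArA replicate 2 lay inside the control range of PCYT2 and the other ArA libraries lay below it. PCYT2 had a difference of -0.09 (95% interval -0.30 to 0.11). After GC correction it was -0.15 (limma unadjusted p = 0.0475, adjusted p = 1.00). PCYT2 overlaps ANAPC11 on the opposite strand, at 107.2 to 121.3 TPM, so that its level is uncertain where strand was not used.

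The 3 phosphotransferases overlapped between groups. CHPT1, which completes phosphatidylcholine, had 55.85, 46.46 and 49.26 TPM in controls 1 to 3 against 55, 55.91 and 58.39 TPM in ArA replicates 1 to 3, where control replicate 1 lay inside the ArA range, and a difference of 0.16 (95% interval -0.07 to 0.39). CEPT1, which can make both phosphatidylcholine and phosphatidylethanolamine, had 43.07, 30.57 and 36.62 TPM in controls 1 to 3 against 35.16, 41.91 and 44.54 TPM in ArA replicates 1 to 3. SELENOI, a selenoprotein that makes phosphatidylethanolamine, had 18.62 to 32.31 TPM in control and 22.09 to 29.57 TPM in ArA libraries. In each of these 3 genes control replicate 2 and ArA replicate 1 were the lowest of their groups. CEPT1 overlaps DRAM2 on the opposite strand (15.31 to 25.06 TPM), so that its level is uncertain where strand was not used. PEMT, which methylates phosphatidylethanolamine to phosphatidylcholine and is most active in liver, had 41.61, 42.89 and 35 TPM in controls 1 to 3 against 47.36, 35.68 and 42.69 TPM in ArA replicates 1 to 3, again with overlap.

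PTDSS1, which makes phosphatidylserine from phosphatidylcholine, was the most abundant member. It had 196.24, 222.14 and 181.15 TPM in controls 1 to 3 against 237.11, 200.29 and 189.69 TPM in ArA replicates 1 to 3, and PTDSS2, which uses phosphatidylethanolamine, had 37.98, 42.9 and 39.84 TPM in controls 1 to 3 against 47.99, 40.37 and 39.22 TPM in ArA replicates 1 to 3. For both, control replicate 2 and ArA replicate 1 were highest, and the ranges overlapped. The PTDSS1 share of the pair's transcripts was 83.2 ± 1.05% in control and 83.1 ± 0.193% in ArA libraries (SD, n = 3 each). PISD, the mitochondrial decarboxylase that turns phosphatidylserine into phosphatidylethanolamine, ranged from 19.73 to 22.13 TPM in controls and from 19.41 to 23.66 TPM with ArA.

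The CDP-diacylglycerol route was led by CDIPT, the phosphatidylinositol synthase, with 57.27, 55.26 and 50.39 TPM in controls 1 to 3 against 63.04, 50.96 and 53.4 TPM in ArA replicates 1 to 3. CDS2 carried nearly all CDP-diacylglycerol synthase transcripts, at 94.2 ± 1.17% of the CDS1 and CDS2 sum in control and 95.3 ± 0.786% in ArA libraries (SD, n = 3 each). CDS1 was the lowest tested member, at 1.33 to 2.19 TPM in control and 1.42 to 1.84 TPM in ArA libraries. PTPMT1, the mitochondrial phosphatase of the route, had 32.29, 27.09 and 29.13 TPM in controls 1 to 3 against 32.18, 31.93 and 31.9 TPM in ArA replicates 1 to 3, with the ArA libraries inside the control range, and CRLS1, the cardiolipin synthase, had 18.27, 13.44 and 15.98 TPM in controls 1 to 3 against 12.34, 13.42 and 16.08 TPM in ArA replicates 1 to 3. CRLS1 had a difference of -0.17 (95% interval -0.53 to 0.18), and -0.21 (limma unadjusted p = 0.0469, adjusted p = 1.00) after GC correction. PGS1, which makes the first phosphatidylglycerol intermediate, had 6.34 to 10.45 TPM in control and 7.06 to 9.09 TPM in ArA libraries. PTPMT1 overlaps NDUFS3 on the same strand (115.3 to 129.8 TPM), and its level is uncertain for that reason.

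Among the ether lipid enzymes, 3 of 4 varied widely between libraries of the same group. FAR1, which supplies fatty alcohol for ether lipids, had 18.81, 8.43 and 17.94 TPM in controls 1 to 3 against 7.64, 16.38 and 18.55 TPM in ArA replicates 1 to 3. AGPS, which forms the ether bond, had 18.63, 11.42 and 18.17 TPM in controls 1 to 3 against 10.48, 17.05 and 21.34 TPM in ArA replicates 1 to 3, and GNPAT, which acylates dihydroxyacetone phosphate in peroxisomes, had 20.66, 13.02 and 18.78 TPM in controls 1 to 3 against 13.84, 19.13 and 20.61 TPM in ArA replicates 1 to 3. In FAR1, AGPS and GNPAT, control replicate 2 and ArA replicate 1 were far below the other 4 libraries, whatever their treatment. AGPS overlaps NFE2L2 on the opposite strand (11.32 to 20.51 TPM, also lowest in control 2 and ArA replicate 1 of their groups). The level of AGPS is uncertain where strand was not used. As a fold of TPM + 1, the interval of FAR1 spanned 0.497 to 1.78 and that of AGPS 0.629 to 1.58, so that moderate differences in these genes were not detectable here. Their differences were -0.09 (95% interval -1.01 to 0.83) for FAR1 and -0.00 (95% interval -0.67 to 0.66) for AGPS. Without ArA replicate 1 the signs turned, to 0.27 for FAR1 and 0.26 for AGPS, and without control replicate 2 the values were -0.44 and -0.22. The FAR1 sign also turned without control 1 (0.10) or control 3 (0.067), and that of AGPS likewise (0.11 and 0.094). PEDS1, the desaturase that makes the vinyl ether bond of plasmalogens, behaved otherwise, with 20.31, 23.4 and 21.53 TPM in controls 1 to 3 against 26.16, 22.53 and 25.17 TPM in ArA replicates 1 to 3, and its ArA replicate 2 lay inside the control range. PEDS1 had a difference of 0.17 (95% interval -0.08 to 0.42). The readthrough gene PEDS1-UBE2V1 overlaps PEDS1 on the same strand and had 0.18 to 2.16 TPM.

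The triglyceride and phospholipid branches had similar median differences. The median difference between ArA and control was 0.050 over the 14 triglyceride members and 0.067 over the 19 tested phospholipid members, against 0.056 over all tested genes, and 0.015 over the 4 ether members. In the triglyceride branch 9 of 14 differences were positive, in the phospholipid branch 14 of 19, and in the ether class 2 of 4. To compare branches within a library, each gene's log2(TPM + 1) less its mean over the 6 libraries was averaged over a branch. The triglyceride average was 0.018, -0.10 and 0.0041 in control replicates 1, 2 and 3 and 0.031, 0.030 and 0.019 in ArA replicates 1, 2 and 3. The phospholipid average was 0.048, -0.11 and -0.0027 in the control libraries and -0.034, 0.039 and 0.055 in the ArA libraries. Control replicate 2 was the lowest library in both branches. It was also the lowest over all tested genes, whose average was -0.15 there and -0.10 in ArA replicate 1. The triglyceride minus phospholipid average was -0.0066 ± 0.021 in control and 0.0066 ± 0.052 in ArA libraries (SD, n = 3 each), a difference smaller than the spread within either group. With only lipins and DGATs counted as the triglyceride branch, the difference of branch medians was -0.036, and with ether members counted as phospholipid it was -0.013, against -0.017 as first defined. No test was made of these averages, since genes of a branch are not replicates.

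**Figure D4:**
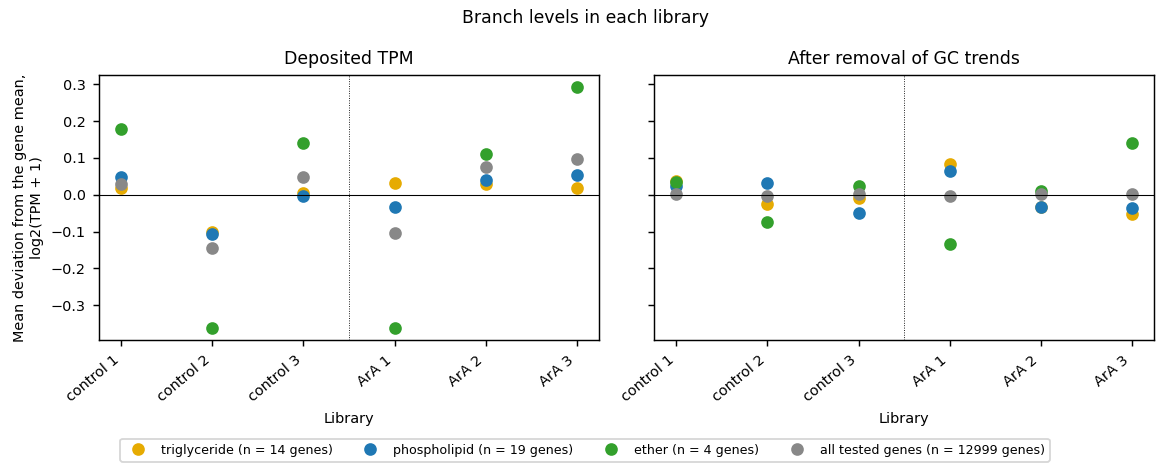
Average over a branch's genes of log2(TPM + 1) less each gene's mean over the 6 libraries, for each library, in deposited values (left) and after removal of each library's trend with GC content (right). The ether average is low in control 2 and ArA 1 on the left (both -0.36) and nearer 0 on the right (-0.073 and -0.13), while triglyceride and phospholipid averages stay within 0.11 of 0 in all 6 libraries.

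The libraries' trend with GC content moved with these levels. Across the 37 tested members, which share each library, the deviation of a gene from its mean correlated with the GC content of its longest transcript at r = 0.67 in control replicate 2 and 0.55 in ArA replicate 1. In control replicates 1 and 3 it was -0.61 and -0.24, and in ArA replicates 2 and 3 -0.40 and -0.63. Over 12637 tested genes with a GC value the same correlations were 0.45 and 0.41, and -0.40, -0.25, -0.099 and -0.25. Control replicate 2 and ArA replicate 1 were both the lowest of their groups for 19 of 37 members, where 44.6% of all tested genes were so, and both the highest for 8, where 12.1% of all were. Member transcripts ranged from 31.3% GC in FAR1 to 65.9% in AGPAT2. Bases 301 to 420 of the coding sequences of FAR1, AGPS and AGPAT2, counted from the A of the start codon in the longest coding sequence of each gene in GENCODE v29, show this contrast. They are given 5′ to 3′ with G and C in capitals and A and T in lower case, since FAR1 and AGPS were the members with the widest spread between libraries and AGPAT2 the one with the highest GC content.
FAR1: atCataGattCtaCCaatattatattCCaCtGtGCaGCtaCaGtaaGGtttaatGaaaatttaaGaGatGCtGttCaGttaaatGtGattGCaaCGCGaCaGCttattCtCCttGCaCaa
AGPS: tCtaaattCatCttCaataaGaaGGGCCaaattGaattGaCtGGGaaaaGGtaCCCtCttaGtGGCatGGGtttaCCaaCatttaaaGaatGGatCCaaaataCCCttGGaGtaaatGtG
AGPAT2: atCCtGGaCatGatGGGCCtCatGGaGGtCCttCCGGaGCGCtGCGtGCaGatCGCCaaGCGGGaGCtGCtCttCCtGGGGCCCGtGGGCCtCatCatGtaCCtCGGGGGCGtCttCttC
G and C made up 42 of 120 bases (35%) in the stretch of FAR1, 45 (37.5%) in that of AGPS and 77 (64.2%) in that of AGPAT2. The whole coding sequences held 40.5, 44.4 and 63.9%, so the contrast is smaller over them. The FAR1 stretch came from a transcript of 5264 bases, while its 31.3% is that of the longest one, of 5820 bases. After the trend was removed, the within-group SD of log2(TPM + 1) went from 0.62 to 0.28 for FAR1, from 0.44 to 0.15 for AGPS and from 0.31 to 0.12 for GNPAT. For AGPAT2, with few A and T bases, it was 0.15 before and 0.16 after. Low GC content did not always go with a narrower spread. The SD went from 0.099 to 0.28 for CHPT1 (34.4% GC) and from 0.13 to 0.26 for ETNK1 (34.6% GC). Its median over the 37 members went from 0.15 to 0.14, and that over all tested genes from 0.18 to 0.14. With their narrower spread the differences of FAR1, AGPS and GNPAT were -0.050, -0.019 and -0.0037. Over the 37 members, 0 passed in limma after GC correction (smallest adjusted p = 1.00), against 0.0385% of all tested genes, and 3 (LPIN3, PCYT2 and CRLS1, all lower) had an unadjusted p under 0.05, where 4.11% of all tested genes lay in either direction and 1.76% were lower. Positive differences were found for 20 members, against 53.4% of all tested genes.

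**Figure D5:**
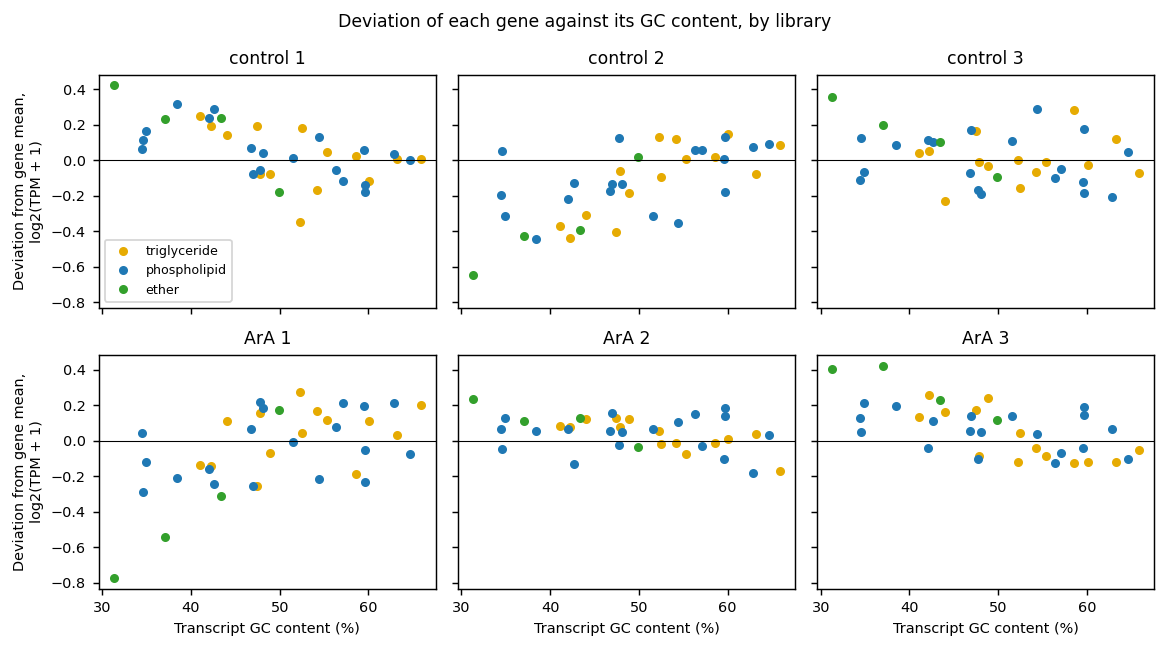
Deviation of each of the 37 tested genes from its mean over the 6 libraries, on the log2(TPM + 1) scale, against the GC content of its longest transcript (%), with a panel for each library and colours for the branches. Points rise with GC content in control 2 (r = 0.67) and ArA 1 (r = 0.55) and fall in the other 4 libraries.

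Other genes that supply, remodel or break down the same lipids were read from the same fit as a list of 56 genes, of which 43 were tested. Of the 43, 0 passed in limma, with 5 at an unadjusted p under 0.05 in limma, all higher, where 2.28% of all tested genes were higher at that level. Their number was 2 without ArA replicate 3, and 3 without control replicate 3 or with median-of-ratios scaling. All tested genes under that p, in either direction, numbered 215, 229 and 267 in these settings, against 362 of 12999 as first fitted. The highest number in any alternative was 6, reached for example without control replicate 1, where 3.18% of all tested genes lay under that p. Positive differences were found for 35 of 43, with a median of 0.097, against 68.9% and 0.056 over all tested genes. After GC correction 31 were positive, with a median of 0.050, against 53.4% and 0.0098 over all tested genes. The groups did not overlap for 10 of 43, all higher, against 6.84% of all tested genes. As the list was chosen with earlier results of these data known, these counts are not an independent comparison with all tested genes. The 5 genes were LPCAT3, SLC44A3, LCAT, PLPP1 and PLPP3. LPCAT3, which places polyunsaturated chains into lysophospholipids, had 62.62, 68.93 and 57.42 TPM in controls 1 to 3 against 88.23, 78.45 and 76.82 TPM in ArA replicates 1 to 3, with ArA replicate 1 highest. SLC44A3, of the choline transporter-like family, had 5.02, 4.59 and 5.3 TPM in controls 1 to 3 against 6.91, 6.52 and 6.98 TPM in ArA replicates 1 to 3. LCAT, known as a plasma enzyme that esterifies cholesterol with a phospholipid chain, had 2.39, 2.57 and 1.43 TPM in controls 1 to 3 against 4.14, 3.28 and 3.76 TPM in ArA replicates 1 to 3. In SLC44A3 and LCAT every ArA library lay above every control library, at low levels. The phosphatidic acid and lipid phosphate phosphatases PLPP1, with 21.23, 20.74 and 20.45 TPM in controls 1 to 3 against 26.42, 23.83 and 26.86 TPM in ArA replicates 1 to 3, and PLPP3, with 7.45, 6.46 and 6.5 TPM in controls 1 to 3 against 8.2, 8.65 and 10.12 TPM in ArA replicates 1 to 3, also did not overlap. Their differences were 0.36 (95% interval 0.12 to 0.60) for LPCAT3, 0.39 (95% interval 0.11 to 0.67) for SLC44A3, 0.61 (95% interval 0.16 to 1.06) for LCAT, 0.29 (95% interval 0.07 to 0.51) for PLPP1 and 0.35 (95% interval 0.05 to 0.66) for PLPP3, each with a limma adjusted p of 0.999. The monoacylglycerol acyltransferase genes MOGAT1, MOGAT2 and MOGAT3, which make diacylglycerol without glycerol-3-phosphate, and the glycerol-3-phosphate dehydrogenase gene GPD1 had means of at most 0.0683 TPM and were not tested.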

How the data were processed

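RNA was measured in 6 libraries of MDA-MB-231 cells, 3 given ArA and 3 controls. The authors deposited TPM values in a single table, from libraries prepared with an Illumina TruSeq RNA kit and 1 µg of total RNA per the labels' protocols. The submitters' processing notes list HISAT2, StringTie, RSEM and hg38. Their versions, the annotation and the strand setting were not given in the sources used. Since TPM keeps no read totals, depth is unknown, and only the replicates show the precision.

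Lines naming no gene (50) were left out. The 12999 genes averaging 1 TPM or more were fitted on log2(TPM + 1) with limma 3.58.1 in R 4.3.3 (eBayes with trend, group as the only term), 2-sided, adjusted by Benjamini-Hochberg over all of them. The fit was tested on simulated data. GC correction subtracted from each library a natural spline (5 degrees of freedom) of its deviations on the GC content of the longest GENCODE v29 transcript, known for 97.2% of tested genes. Members and lists were chosen with earlier results of these data known. Members named with values in every library were the 12 with the smallest p, with separated members first where p was under 0.05, and the 2 most abundant of each enzyme class. FAR1 and AGPS were added after their values were seen. Other pathway genes named were those separated with an unadjusted p under 0.05, up to 8. Alternatives were 3 scalings, 2 pseudocounts, 2 filters, a replicate block, GC correction with and without the block, each library left out in turn, and 2 branch definitions. The fit without control replicate 2 and ArA replicate 1 was chosen after seeing the data.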

Additional observations from a re-analysis of the deposited data

How the results depend on the processing

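No member and no other pathway gene passed under any of the 17 alternatives. At an unadjusted p under 0.05 the members numbered 0 to 3 in limma. The 3 were reached after GC correction, where 4.11% of all tested genes lay under that p, and without control replicate 1, where 3.18% did. With libraries left out in turn, all genes past the threshold ranged from 0 (without control 1 or ArA replicate 2) to 7 (without control 2 or ArA replicate 1), members whose groups did not overlap from 4 to 8 (12.4 to 27.0% of all tested genes), the triglyceride median from 0.018 to 0.075, the phospholipid median from 0.026 to 0.090 and their difference from -0.029 to -0.0013. Of all genes, 3 passed in the analysis as reported, 5 after GC correction and 2 with GC correction and the replicate block. Without control replicate 2 and ArA replicate 1, 12 genes passed and the groups of 12 members did not overlap, where those of 44.4% of all tested genes did not. With the replicate number as a block 0 genes passed (232 at an unadjusted p under 0.05 in limma) and 0 members. Deviations from the group means correlated at -0.16, -0.28 and 0.11 for libraries of the same number 1, 2 and 3. Control replicates 1, 2 and 3 correlated best with ArA replicates 2, 1 and 2. These correlations were taken before GC correction, with a GC trend shared by control replicate 2 and ArA replicate 1. They cannot decide whether libraries of the same number were paired.

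The triglyceride median was -0.0016 with median-of-ratios scaling, -0.0081 with quantile normalisation, -0.0067 without mitochondrially encoded genes and -0.0029 after GC correction, with or without the replicate block. The phospholipid median, 0.067 as deposited, was 0.0096, 0.0075, 0.0041 and 0.0076 in these settings. The median of all genes, 0.056 as deposited, was 0.0031, 0.0053, -0.0031 and 0.0098 in these settings. Mitochondrially encoded genes took 31.6 to 32.9% of control libraries and 32.1, 28.0 and 26.9% of ArA replicates 1, 2 and 3.

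Of 34 named genes, 21 kept their sign in all alternatives that could be fitted and 13 did not, and the cause was not tested. With median-of-ratios scaling GPAT4 was at -0.012, LPIN1 -0.025, PCYT1A -0.031, CDIPT -0.024 and GNPAT -0.022. With quantile normalisation GPAT4 was at -0.021, LPIN1 -0.035, PCYT1A -0.033, PTDSS1 -0.028, CDIPT -0.039 and GNPAT -0.024. Without mitochondrially encoded genes GPAT4 was at -0.018, LPIN1 -0.031, PCYT1A -0.037, PTDSS1 -0.0019, CDIPT -0.030 and GNPAT -0.028. After GC correction, with or without the replicate block, GPAT4 was at -0.019, LPIN1 -0.016, PCYT1A -0.019, CDIPT -0.027 and GNPAT -0.0037. Without control replicate 2 and ArA replicate 1, GPAT2 was at 0.015, GPAT4 -0.00061, LPIN1 -0.026, CDIPT -0.042 and AGPS 0.050. With a pseudocount of 5 AGPS was at 3.59e-05. With libraries left out in turn the ranges were -0.061 to 0.072 for GPAT2, -0.021 to 0.15 for GPAT4, -0.12 to 0.070 for AGPAT2, -0.16 to 0.17 for LPIN1, -0.079 to 0.017 for DGAT1 (-0.10 without control replicate 2 and ArA replicate 1), -0.046 to 0.16 for PCYT1A, -0.023 to 0.18 for PEMT, -0.031 to 0.14 for PTDSS1, -0.014 to 0.13 for PTDSS2, -0.055 to 0.096 for CDIPT, -0.15 to 0.20 for GNPAT, -0.44 to 0.27 for FAR1 and -0.22 to 0.26 for AGPS. With the filter at a mean of 5 TPM, genes below it, LPIN3 among them, had no value.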

Other observations

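Some values of tested genes in the list of other pathway genes stood out after they had been seen. Neither gene passed in limma. The difference was -0.36 for MGLL (limma unadjusted p = 0.141) and 0.33 for DGKA (limma unadjusted p = 0.343), each with a limma adjusted p of 0.999. MGLL, which breaks down monoacylglycerol, had 28.34, 52.93 and 48.03 TPM in controls 1 to 3 against 30.63, 33.04 and 32.74 TPM in ArA replicates 1 to 3, with control replicate 1 near the ArA libraries and the other controls well above them. DGKA, a kinase that turns diacylglycerol back into phosphatidic acid, had 15.94, 13.79 and 17.53 TPM in controls 1 to 3 against 16.45, 13.53 and 35.06 TPM in ArA replicates 1 to 3.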
